A study of Mus musculus with 3 samples.

Results

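The AP-1 genes examined here are the Fos genes Fos, Fosb, Fosl1 and Fosl2, the Jun genes Jun, Junb and Jund, and the related genes Atf3, Batf and Batf3. They were taken from the table of normalized counts by gene name, and all 10 names had a row among 23393 usable rows. The libraries came from bone marrow of C57BL/6 mice, with 1 library for each of 3 sorted populations. All 3 were LSK cells, that is, cells without lineage markers that carry Sca-1 and c-Kit, the fraction that holds stem cells and early progenitors. Hematopoietic stem cells (HSCs) were CD48-negative and CD150-positive and carried a GFP reporter for Map17 that was on (GFP+ HSC) or off (GFP- HSC). Multipotent progenitors (MPPs) were CD48-positive, CD150-negative and GFP-. The sources used here do not say how the reporter was built, how old the mice were or how many were pooled.

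AP-1 is a transcription factor made of pairs of proteins that grip each other through a leucine zipper and bind DNA through a basic stretch next to it, together called a bZIP domain. Jun proteins pair with one another or with Fos proteins, whereas Fos proteins need a partner such as Jun. Several of the genes are immediate-early genes: MAP kinase signals switch them on within minutes, their mRNAs decay quickly, and blood cells are known to induce them in response to cytokines, stress and the handling of tissue. Atf3 is a stress-induced relative that often represses its targets, and the Batf proteins pair with Jun and are best known from lymphocytes and dendritic cells.

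The measured quantity is the authors' normalized count per gene, called the level. Levels summed to 25311805 in GFP+ HSCs, 25375047 in GFP- HSCs and 26689660 in MPPs, and sequencing depth is unknown because the scaling factors are not given. With 1 library per population there is no spread between replicates and no test, so each difference below compares single libraries. The sort genes followed the gates: Slamf1, which encodes CD150, stood at 2219 in GFP+ HSCs, 2144 in GFP- HSCs and 17 in MPPs, and Cd48 at 64, 168 and 7744 in the same order. Pdzk1ip1, the gene of Map17, stood at 5659, 3673 and 290. Markers of other cell types were summed by list, and single genes held much of some sums. The 12 monocyte and macrophage genes came to 7291 in GFP+ HSCs, 7109 in GFP- HSCs and 18370 in MPPs, most of it Lyz2 in the HSC libraries (6173 and 5986). The 10 neutrophil genes came to 1757, 837 and 862 in the same order, 7 B cell genes to 906, 773 and 1365, and 8 T and NK cell genes to 736, 773 and 2141. Cd79b made up most of the B cell sums, at 870, 749 and 1109. Lck was the largest of the T and NK cell genes, at 370, 399 and 1784. The 8 erythroid genes came to 1000, 1174 and 468, and 9 stromal and endothelial genes to 5168, 4750 and 7160. The largest of the latter was Pecam1, at 2098 in GFP+ HSCs, 2304 in GFP- HSCs and 4053 in MPPs. Hbb-b1, Hba-a1 and Hba-a2 were listed at 0 in each library, and Hbb-bt, also on the erythroid list, had no row. A listed 0 was not taken as absence of a transcript, so globin content cannot be read from these rows.

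Fos, Jun and Jund were among the highest levels per kilobase listed for each population, and the family as a whole was more abundant in both HSC fractions than in MPPs. The 10 genes together held 2.0% of the summed levels in GFP+ HSCs, 2.14% in GFP- HSCs and 1.5% in MPPs. Per kilobase of transcript, taken as the longest annotated one, Fos ranked 2 in every library, behind B2m, the light chain of MHC class I. Jun ranked 3, 3 and 4 and Jund 4, 4 and 6 in GFP+ HSCs, GFP- HSCs and MPPs. Junb followed at places 15, 18 and 33, and Fosb at 60, 35 and 143. Atf3 lay at places 475, 282 and 446, and Batf at 2318, 2421 and 3386. Fosl2 (4153, 5602 and 8702) and Fosl1 (8268, 7882 and 9093) came far behind. By median transcript length Fos ranked 1 in every library, Jun 9, 9 and 23, Jund 12, 12 and 34, and Fosb 339, 212 and 752. Such ranks hold among the levels listed, and genes that cells commonly use can stand low in this table, such as Gapdh, an enzyme gene of glycolysis, at a level of 152 in GFP+ HSCs, 170 in GFP- HSCs and 171 in MPPs. Batf3 was listed at 0 in GFP+ HSCs and stood at 2 in GFP- HSCs and 13 in MPPs. It was the 1 member whose mean over the libraries was under 50, the minimum for a comparison, so that 9 of 10 members were compared.

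**Figure D1:**
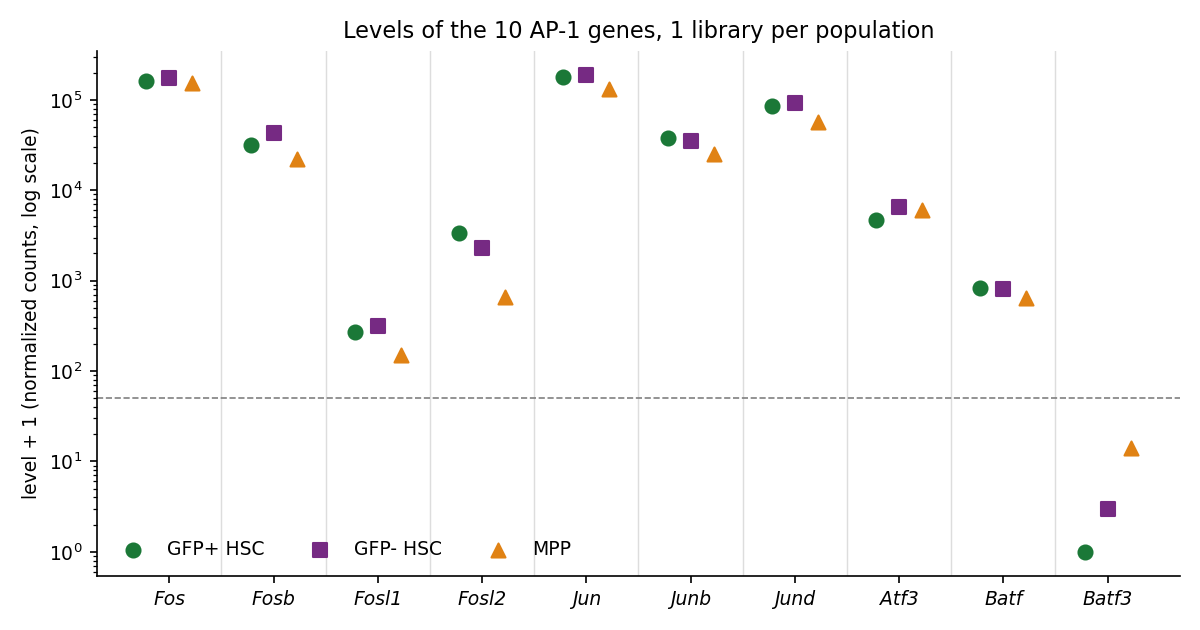
Level (normalized counts, plus 1, log scale) of each of the 10 AP-1 genes in the GFP+ HSC, GFP- HSC and MPP library. Each point is 1 library, and the dashed line marks a level of 50. Levels are not divided by transcript length. Fos lies between 154546 and 173432 in the 3 libraries, Fosl2 is at 3368 in GFP+ HSCs and 652 in MPPs, and Batf3 lies below the line.

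The control regions of Fos, Jun and Junb are shown. These abundant members had a match to an element of the kind that AP-1 relatives bind, in windows free of annotated exons. Fosb also had a match, but its window overlaps an exon of Fosb and is not shown. Jund, more abundant per kilobase than Junb, had none of the motifs searched in its window and is not shown. The Jund window precedes the RefSeq start at 70697739, whereas the GENCODE gene starts at 70698949. The bases directly before the GENCODE start were not searched. Each sequence is the stretch of 250 bases before the RefSeq start of the gene (GRCm38.p6), read along the gene's strand, with matches to TGACATCA or to TGACG in capitals. The Fos window is chr12:85473640-85473889 (plus strand), the Jun window chr4:95052223-95052472 (minus strand) and the Junb window chr8:84978749-84978998 (minus strand).
Fos: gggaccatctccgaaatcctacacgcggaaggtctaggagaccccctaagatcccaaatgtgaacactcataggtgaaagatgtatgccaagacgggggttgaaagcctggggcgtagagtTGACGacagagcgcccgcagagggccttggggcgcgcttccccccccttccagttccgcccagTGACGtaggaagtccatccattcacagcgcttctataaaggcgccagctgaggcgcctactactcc
Jun: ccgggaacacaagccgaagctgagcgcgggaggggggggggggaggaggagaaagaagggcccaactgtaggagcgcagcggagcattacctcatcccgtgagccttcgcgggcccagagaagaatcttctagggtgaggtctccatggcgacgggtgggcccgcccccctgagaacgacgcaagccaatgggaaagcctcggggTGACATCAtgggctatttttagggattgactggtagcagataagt
Junb: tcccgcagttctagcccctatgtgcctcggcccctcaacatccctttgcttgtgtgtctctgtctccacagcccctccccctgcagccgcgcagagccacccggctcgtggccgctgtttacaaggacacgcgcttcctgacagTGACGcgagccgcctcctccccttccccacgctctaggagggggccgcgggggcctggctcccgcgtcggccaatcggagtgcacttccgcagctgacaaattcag

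TGACATCA is a relative of TGACGTCA, the cyclic AMP response element, and is known in the Jun promoter as a site for Jun and ATF dimers. It lay 45 to 38 bases before the Jun start, and 2.93% of 32851 promoter windows of the same length held it on either strand. TGACG, the core that TGACGTCA contains, was found in 5 of the 9 members with a window, namely Fos, Fosb, Junb, Atf3 and Batf, against 17.8% of all windows. The Fos window held it 129 to 125 and 66 to 62 bases before the start. Fos is known to have a cyclic AMP response element in its proximal promoter. TATAAA was present in the Fos window, and in 12.4% of all windows. The full TGACGTCA (1.55% of all windows), TGACTCA, the classical AP-1 site (4.46%), and the CArG box, the site of the serum response factor (1.47%), were in 0 of the 9 member windows, with both strands searched. The windows of Fosb, Fosl2, Atf3, Batf and Batf3 overlap annotated exons of the same genes, so they are not purely upstream sequence. The Atf3 window ends at 191183583, inside the GENCODE gene, which runs to 191218039. The windows say nothing about elements farther upstream.

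The 3' ends were examined because rapid decay of AP-1 mRNAs is tied to AU-rich elements there. In the longest coding transcript of GENCODE M21, the pentamer ATTTA occurred in the 3' untranslated region of 8 of the 10 members, all but Batf and Batf3, against 70.1% of 10884 genes compared. Fosl2 had 8 copies in 4653 bases, Fos 4 in 815 and Jun 4 in 1233. Per kilobase of these regions, the 10 members together had 1.95 copies, near the 1.82 of the genes compared. The stricter nonamer TTATTTATT was found in Fos and Fosl2, that is in 2 of 10 members, against 8.04% of genes compared. The 2 sites, with the nonamer in capitals, lie at chr12:85477103-85477131 (plus strand) in Fos and at chr5:32156871-32156899 (plus strand) in Fosl2 (GRCm38).
Fos: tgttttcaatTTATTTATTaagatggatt
Fosl2: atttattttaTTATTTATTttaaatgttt

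The Fos genes differed from one another in how they varied over the populations. Fos (chromosome 12, 85473890 to 85477273, GRCm38), the founding member and partner of Jun, stood at 161989 in GFP+ HSCs, 173432 in GFP- HSCs and 154546 in MPPs. It was nearly level: GFP- HSCs exceeded MPPs 1.12-fold and GFP+ HSCs exceeded MPPs 1.05-fold. Fosb (chromosome 7, 19302696 to 19310051), which can replace Fos in the dimer, stood at 31711 in GFP+ HSCs, 43079 in GFP- HSCs and 22465 in MPPs. GFP- HSCs were therefore highest for Fosb, at 1.92 times the MPP level, just under the 2-fold limit by which genes were counted.

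Fosl2 (chromosome 5, 32135801 to 32157842), which encodes Fra-2, a Fos protein without the strong activation domain of Fos, differed most. Its level was 3368 in GFP+ HSCs, 2295 in GFP- HSCs and 652 in MPPs. GFP+ HSCs thus exceeded GFP- HSCs 1.47-fold and MPPs 5.17-fold, and GFP- HSCs exceeded MPPs 3.52-fold. Fosl1 (chromosome 19, 5447547 to 5455946), which encodes the related Fra-1, was rare, at 272 in GFP+ HSCs, 314 in GFP- HSCs and 149 in MPPs. Its exons share 1163 bases with Ccdc85b on the opposite strand (798, 772 and 556 in GFP+ HSCs, GFP- HSCs and MPPs), and since the library kit does not mark the strand, reads from that stretch cannot be told apart.

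The Jun genes were higher in both HSC fractions than in MPPs, by less than 2-fold. Jun (chromosome 4, 95049034 to 95052222) encodes the main activating Jun protein and stood at 180537 in GFP+ HSCs, 190529 in GFP- HSCs and 133499 in MPPs. Junb (chromosome 8, 84974484 to 84978718), known in mice to restrain the growth of stem and myeloid progenitor cells, stood at 38164 in GFP+ HSCs, 34787 in GFP- HSCs and 24920 in MPPs. Jund (chromosome 8, 70698949 to 70700616), which resting cells of many kinds express, stood at 85188 in GFP+ HSCs, 92435 in GFP- HSCs and 57243 in MPPs. In each case the HSC libraries lay close together and the MPP library lay below both. GFP- HSCs exceeded MPPs 1.43-fold for Jun, 1.40-fold for Junb and 1.61-fold for Jund, and GFP+ HSCs exceeded MPPs 1.35-fold, 1.53-fold and 1.49-fold for the same genes. Annotated genes on the opposite strand share 232 exonic bases with Jun, 173 with Junb (Prdx2, at 3397 in GFP+ HSCs, 3689 in GFP- HSCs and 5229 in MPPs) and 877 with Jund.

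Atf3 (chromosome 1, 191170296 to 191218039) went another way. It stood at 4702 in GFP+ HSCs, 6463 in GFP- HSCs and 6040 in MPPs, so that GFP+ HSCs had the lowest level and the other libraries lay close together. Batf (chromosome 12, 85686669 to 85709087) stood at 829 in GFP+ HSCs, 811 in GFP- HSCs and 647 in MPPs. Batf3 (chromosome 1, 191097847 to 191108945), known for the development of a class of dendritic cells, was at or near 0 in both HSC libraries and low in MPPs, as given above. Per kilobase, Batf stood at 868 in GFP+ HSCs, 849 in GFP- HSCs and 677 in MPPs, against 76845, 82273 and 73314 for Fos, so that this relative known from mature immune cells was rare beside Fos in each population.

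Between GFP+ and GFP- HSCs, AP-1 levels were close. Of the 9 members compared, 0 were 2-fold apart in either direction, where GFP+ HSCs were 2-fold or more above GFP- HSCs for 0.410% of 11951 genes and as far below for 0.870%, together 1.28%. Ratios here and below are log2 of (level + 5) in the first library over the second, which understates differences of rare genes. Their median was -0.10 over the members and 0.01 over all genes compared, and 3 members were higher and 6 lower in GFP+ HSCs, against 51.7% and 47.8% of all genes. Among the 74 genes whose mean reached 20000, a bound chosen after the values were seen, GFP+ HSCs exceeded GFP- HSCs for 25.7%, and for 1 of the 5 AP-1 genes in the group, Junb. Atf3 (-0.46) and Fosb (-0.44) were lowest of the members, and 5.0% and 5.45% of all genes had ratios as low or lower. Fosl2 was at the other end, at 0.55, and 2.95% of genes were as high or higher. Junb stood at 0.13, Batf at 0.03, Jun at -0.08, Fos at -0.10, Jund at -0.12 and Fosl1 at -0.20. Signs this near 0 depend on scaling: with the libraries set to the same geometric mean of 15 housekeeping genes, whose own median was -0.13, Fos, Jun and Jund stood at 0.04, 0.06 and 0.02, and with the trend on abundance removed Fos and Jun stood at 0.03 and 0.05. For Fosb, Fosl1, Fosl2, Junb, Atf3 and Batf the sign was the same under all scalings tried. Each housekeeping gene counts alike in that mean, including genes low in this table, such as Gapdh (152 in GFP+ HSCs, beside 71484 for B2m).

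Between GFP- HSCs and MPPs, all 9 members compared were higher in GFP- HSCs and 0 lower, where 49.2% of all genes were higher and 50.6% lower. The median ratio was 0.51, against -0.01 over all genes. Fosl2, at 1.81, and Fosl1, at 1.05, passed 2-fold, which is 2 of 9 members, beside 11.6% of all genes. At the other side 0 members were 2-fold lower, beside 5.53% of all genes, and 17.1% of genes were 2-fold apart one way or the other. Fosb followed at 0.94, Jund at 0.69, Jun at 0.51, Junb at 0.48, Batf at 0.32, Fos at 0.17 and Atf3 at 0.10. None of these ratios was rare among all genes: 5.67% of genes were at least as high as Fosl2 and 12.5% at least as high as Fosb. Among the 74 abundant genes, GFP- HSCs exceeded MPPs for 36, by 2-fold or more for 7, and for all 5 AP-1 genes in the group by less than 2-fold. Fosl1 was the weaker of the 2 calls, with a ratio of 0.98 at a pseudocount of 20, whereas Fosb passed 2-fold with the libraries set to the same total (1.01).

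**Figure D2:**
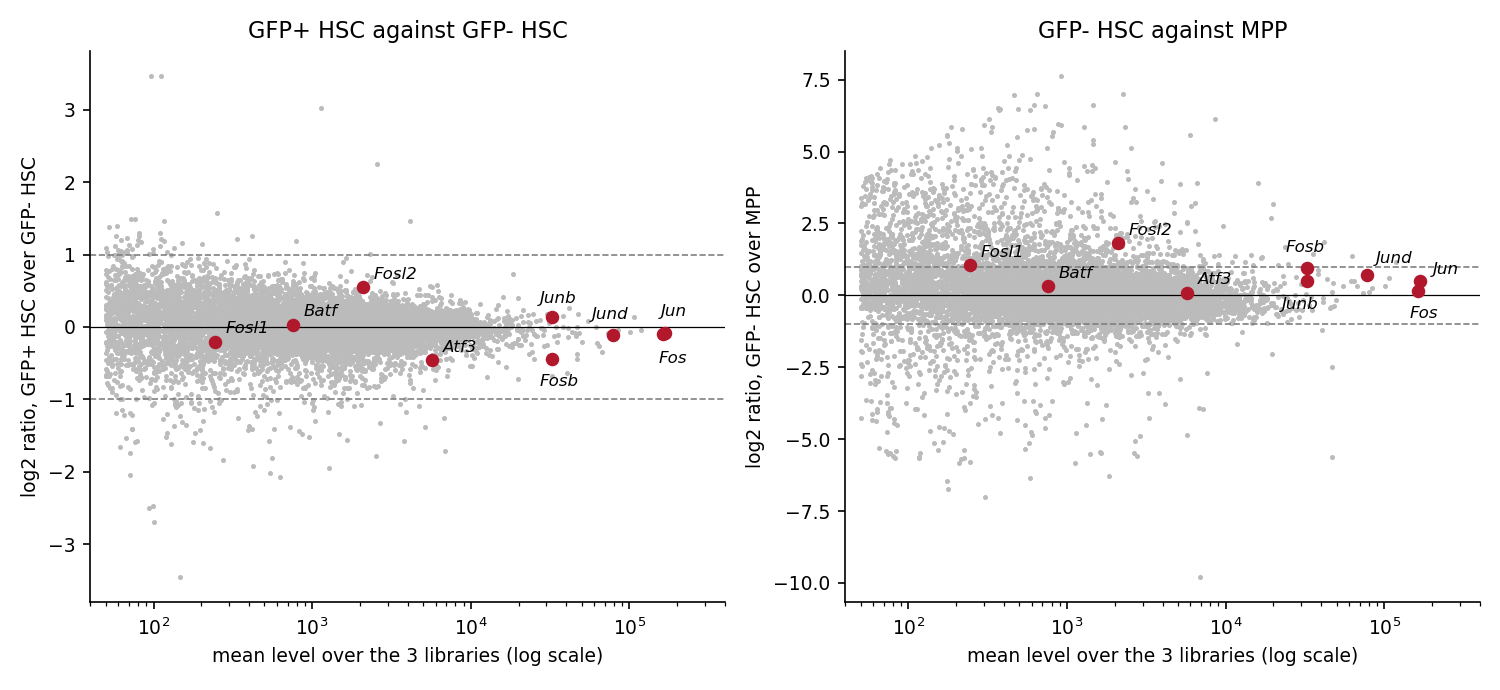
Log2 ratio of GFP+ over GFP- HSCs (left) and of GFP- HSCs over MPPs (right) against the mean level over the 3 libraries (log scale). Each grey point is 1 of 11951 genes, red points are the 9 AP-1 genes compared, and dashed lines mark 2-fold. On the left the AP-1 genes lie between -0.46 (Atf3) and 0.55 (Fosl2), and on the right all 9 lie above 0, up to 1.81 for Fosl2.

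The comparison of GFP+ HSCs with MPPs shares a library with each of the 2 comparisons above and is given beside them, not as further support. In it 8 of 9 members were higher in GFP+ HSCs, beside 50.7% of all genes, and 1 member, Fosl2 at 2.36, passed 2-fold, beside 13.7% of all genes. None of the 9 was 2-fold lower, beside 8.60% of all genes, and 22.3% of genes were 2-fold apart in one direction or the other. Fosl1 stood at 0.85, Junb at 0.61, Jund at 0.57, Fosb at 0.50, Jun at 0.44, Batf at 0.36 and Fos at 0.07. Atf3 was the exception, at -0.36, and turned to 0.10 with the libraries set to the same housekeeping mean.

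Ratios between members within 1 library do not depend on how the libraries were scaled, but their size depends on the transcript length used, which cancels when a ratio is compared between libraries. Per kilobase of the longest transcript, Fos was the leading member and made up 35.3% of the family in GFP+ HSCs, 35.4% in GFP- HSCs and 42.3% in MPPs. The 3 Jun genes together made up 59.1% in GFP+ HSCs, 57.8% in GFP- HSCs and 52.0% in MPPs. By median transcript length, an alternative added after the values were seen, Fos made up 56.2%, 56.6% and 63.6% in the same order and the Jun genes 39.8%, 38.7% and 32.8%, so that which of them made up more turned with the length, while the Fos share was highest in MPPs by either length. Jun per kilobase was 0.737 times Fos in GFP+ HSCs, 0.726 times in GFP- HSCs and 0.571 times in MPPs, and by median length 0.285, 0.281 and 0.221 times. By either length the ratio of Jun to Fos was 1.29 times as high in GFP+ HSCs as in MPPs and 1.27 times as high in GFP- HSCs as in MPPs. Fosl2 per kilobase was 0.00670 times Fos in GFP+ HSCs, 0.00427 times in GFP- HSCs and 0.00136 times in MPPs. Relative to Fosb, Fosl2 per kilobase was 1.99 times as high in GFP+ as in GFP- HSCs, the widest gap among the 10 pairs computed between those fractions. Not every pair was computed. Fosl2 relative to Atf3, the highest and lowest of the members compared between those fractions, was not among them. Atf3 per kilobase was 0.0419 times Jun in GFP+ HSCs, 0.0545 times in GFP- HSCs and 0.0727 times in MPPs. Junb per kilobase was 0.373, 0.322 and 0.329 times Jun in GFP+ HSCs, GFP- HSCs and MPPs, and 0.586, 0.506 and 0.517 times by median length.

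**Figure D3:**
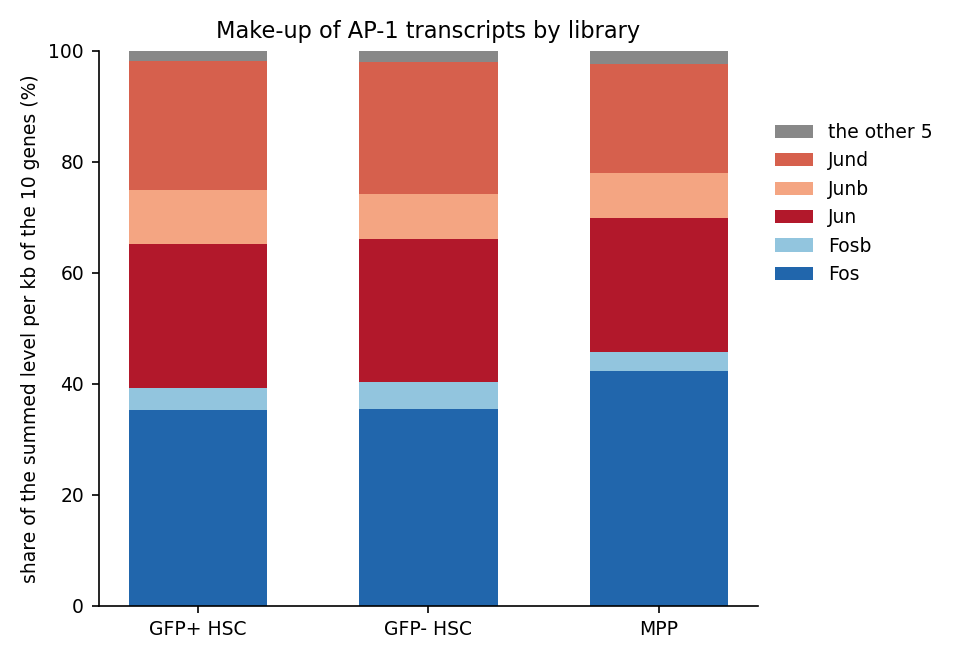
Share (%) of each gene in the summed level per kilobase of the longest transcript of the 10 AP-1 genes, in the GFP+ HSC, GFP- HSC and MPP library. The Fos share is 35.3%, 35.4% and 42.3% in that order, and the Jund share 23.4%, 23.8% and 19.8%. Each bar is 1 library.

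For the remaining members of the bZIP class, 36 of 42 passed the filter. GFP- HSCs exceeded MPPs 2-fold or more for 7 of them (19.4%, beside 11.6% of all genes). They lay 2-fold or more below MPPs for 2 (5.56%, beside 5.53%), and the median was 0.11. With a minimum mean of 200 the counts became 4 and 1. Between the HSC fractions, 0 of the 36 were 2-fold apart, beside 1.28% of all genes. Batf2, another Batf gene, stood at 408 in GFP+ HSCs, 353 in GFP- HSCs and 77 in MPPs. Maff, a small Maf protein that lacks an activation domain, stood at 1575, 1500 and 417 in the same order. Cebpa, which drives myeloid differentiation, ran the other way at 71 in GFP+ HSCs, 102 in GFP- HSCs and 1723 in MPPs, and Cebpd stood at 356, 354 and 710.

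Genes that act on AP-1 from upstream were mostly level. Of 26 MAP kinase pathway genes past the filter, 1 passed 2-fold in favour of GFP- HSCs over MPPs (3.85%, beside 11.6% of all genes). In favour of MPPs there were 0, beside 5.53% of all genes, and the median was -0.07. The exception was Mapk12, a p38 kinase of modest level, at 425 in GFP+ HSCs, 351 in GFP- HSCs and 77 in MPPs. Mapk8, which encodes the Jun kinase JNK1, stood at 192, 257 and 277 in GFP+ HSCs, GFP- HSCs and MPPs. Of 9 serum response, TCF and MEF2 factor genes, a group that includes known regulators of Fos, 0 were 2-fold apart in any comparison. For GFP- HSCs against MPPs their median was 0.00, and 17.1% of all genes were 2-fold apart. Srf itself stood at 1040 in GFP+ HSCs, 1165 in GFP- HSCs and 1517 in MPPs, and Elk4 at 1503, 1516 and 909. The 15 genes for turnover of Jun and Fos proteins and for their cofactors had medians of 0.02 for GFP+ against GFP- HSCs and -0.05 for GFP- HSCs against MPPs. In these comparisons 0 of them were 2-fold apart, beside 1.28% and 17.1% of all genes. The cofactor gene Ncoa1 stood at 3604 in GFP+ HSCs, 3014 in GFP- HSCs and 2015 in MPPs, and Cops5, whose product binds Jun, at 1871, 2140 and 2817.

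Feedback inhibitors of the MAP kinases did not all go one way: of 15 past the filter, 11 were higher and 4 lower in GFP- HSCs than in MPPs. Of the 15, 4 (26.7%, beside 11.6% of all genes) passed 2-fold in favour of GFP- HSCs over MPPs. In favour of MPPs there were 0, beside 5.53% of all genes, and the median was 0.71. The 4 became 9 with housekeeping scaling and 2 with a minimum mean of 200. Dusp4, a phosphatase of nuclear MAP kinases, stood at 1523 in GFP+ HSCs, 1238 in GFP- HSCs and 106 in MPPs, and the growth factor inhibitor gene Spry4 at 166, 124 and 24. Dusp5 and Dusp7, which act on ERK, stood lower in both HSC fractions, at 3265, 3078 and 5676 for Dusp5 and 826, 700 and 1369 for Dusp7. Between the HSC fractions, 0 of 15 were 2-fold apart, beside 1.28% of all genes. Dusp8 (104 in GFP+ and 171 in GFP- HSCs) and Dusp6 (5659 and 7730) had the lowest ratios. Genes for the decay of AU-rich mRNA had 0 of 17 that were 2-fold apart in any comparison. Of all genes, 17.1% were 2-fold apart for GFP- HSCs against MPPs. Zfp36l2, which binds such mRNAs, stood at 55849 in GFP+ HSCs, 49258 in GFP- HSCs and 36782 in MPPs.

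The other immediate-early genes gave the nearest match to AP-1 in their medians, and more of them passed 2-fold. GFP- HSCs exceeded MPPs 2-fold or more for 16 of 38 (42.1%, beside 11.6% of all genes). They lay as far below for 1 (2.63%, beside 5.53%), and the median was 0.54. Cyr61, which encodes a matrix protein, stood at 1134 in GFP+ HSCs, 1289 in GFP- HSCs and 20 in MPPs, and Nr4a2, an orphan nuclear receptor, at 2519, 2107 and 315. Nfkbia, an inhibitor of NF-kappaB, stood at 3491, 3638 and 7061. Between the HSC fractions the median was -0.09, and 0.05 with the libraries set to the same housekeeping mean. Id3, an inhibitor of E proteins, at 375 in GFP+ and 758 in GFP- HSCs, was the 1 gene of 38 at least 2-fold apart, and 0 were at a pseudocount of 20 or with that scaling. Heat shock genes, which cell stress also induces, had a median of the opposite sign to AP-1 against MPPs. GFP- HSCs lay below MPPs for 9 of 12 and above for 3 (median -0.45), beside 50.6% and 49.2% of all genes. The housekeeping genes went the same way, with 12 of 15 lower and 3 higher (median -0.34). With the housekeeping scaling, 8 of 12 heat shock genes were lower and 4 higher (median -0.14). The Hsp70 gene Hspa1a stood at 1963 in GFP+ HSCs, 2950 in GFP- HSCs and 7456 in MPPs. Dnajb4 went the other way, at 4354, 4580 and 2729. In GFP+ HSCs 12 of 12 heat shock genes were lower than in GFP- HSCs (median -0.27), beside 47.8% of all genes. Of the 12, 0 were 2-fold apart, beside 1.28% of all genes. The housekeeping genes again went the same way, with 13 of 15 lower and 2 higher in GFP+ HSCs (median -0.13). With the housekeeping scaling 9 of 12 heat shock genes were lower and 3 higher (median -0.13). The part of cell handling in the AP-1 levels was not tested.

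Genes widely known as AP-1 targets did not run parallel to AP-1 itself. Of 17 past the filter, 2 (11.8%, beside 11.6% of all genes) passed 2-fold in favour of GFP- HSCs over MPPs. In favour of MPPs 6 did (35.3%, beside 5.53% of all genes), and the median was -0.69. Mmp14, a membrane-bound matrix protease, stood at 1133 in GFP+ HSCs, 1062 in GFP- HSCs and 108 in MPPs, and the growth factor gene Hbegf at 654, 507 and 224. Ccl3, a chemokine gene, stood at 199 in GFP+ HSCs, 223 in GFP- HSCs and 7594 in MPPs, and the cytokine gene Tnf at 31, 67 and 681. The lymphocyte activation marker Cd69 stood at 651, 1710 and 13008. For it and Tnf, 2 of the 17 (11.8%, beside 0.870% of all genes), GFP+ HSCs lay 2-fold or more below GFP- HSCs. At a pseudocount of 20 or with housekeeping scaling, 1 was left. Several of these genes are also expressed by myeloid cells. Beside them, GFP- HSCs lay 2-fold or more below MPPs for 6 of 7 monocyte and macrophage genes past the filter (85.7%, beside 5.53% of all genes). Among these, Csf1r stood at 64 in GFP+ HSCs, 57 in GFP- HSCs and 1666 in MPPs. The part of myeloid cells in the target genes was not tested. In bulk libraries, fewer cells with a transcript and less of it per cell cannot be told apart.

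**Figure D4:**
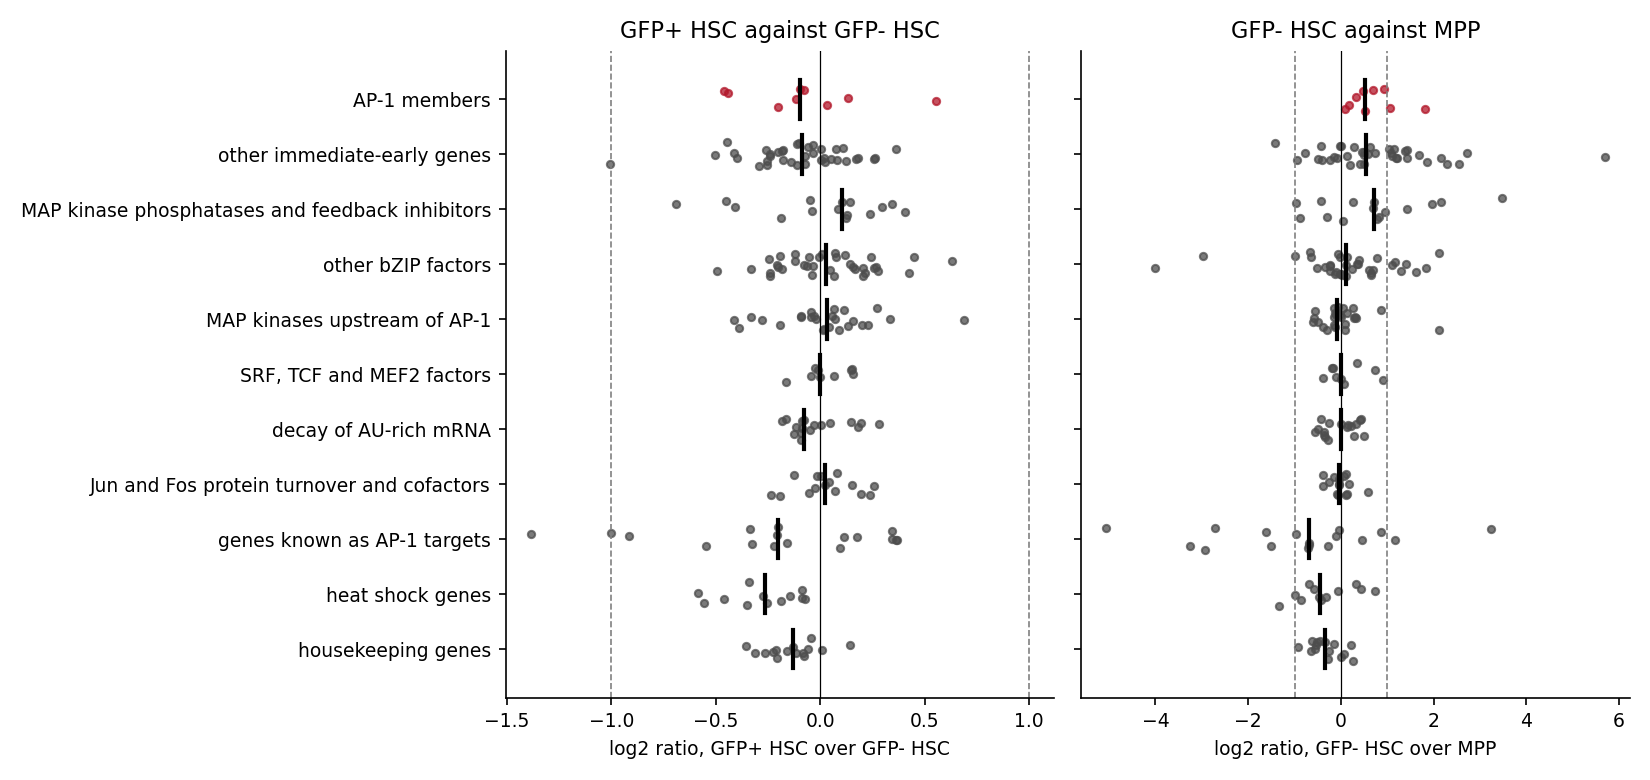
Log2 ratio of each gene of 11 lists for GFP+ over GFP- HSCs (left) and for GFP- HSCs over MPPs (right). Points are genes past the filter, black bars are list medians and dashed lines mark 2-fold. On the right the AP-1 median is 0.51 and that of the other immediate-early genes 0.54, whereas known AP-1 targets have -0.69.

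Genes whose levels over the 3 libraries were nearest in pattern to Fos and to Jun were sought. By distance over the ratios of GFP+ to GFP- HSCs and of GFP- HSCs to MPPs, over the 6483 genes whose mean reached 1000, those nearest to Fos were Usp34, Rsf1, Zfp36l1, Mzt1 and Pigk, at distances of 0.006 to 0.015. Zfp36l1 stood at 1779 in GFP+ HSCs, 1891 in GFP- HSCs and 1696 in MPPs. Those nearest to Jun were Rcan3, Btg1, Cenpt, Srsf5 and Cdc14a, at 0.016 to 0.040, with Btg1, an inhibitor of proliferation, at 5154, 5420 and 3847. Within a distance of 0.1 there were 197 genes for Fos and 58 for Jun. With 3 libraries, such nearness is a description of the values.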

How the data were processed

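TRIzol and PicoPure RNA of the sorted cells was turned into cDNA with the SMART-seq v4 kit, per the labels' protocols, a chemistry without molecular identifiers or strand marks. The submitters' processing notes name STAR, DESeq2 and mm10, without versions or settings. Depth per library and scaling factors are unknown, so counting intervals, planned for raw reads, were not made. The authors deposited 1 table of normalized counts, rounded to whole numbers, which is treated as a score because reads cannot be recovered. Columns neg and pos were read as GFP- and GFP+ HSCs.

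Of 23420 rows, 27 with a date in place of a symbol were left out. Ratios used a pseudocount of 5, and the 11951 genes whose mean level reached 50 were compared and counted at 2-fold. Levels per kilobase used the longest GENCODE M21 transcript, found for 94.0% of genes compared, and promoter windows came from RefSeq (GRCm38.p6). The protein sequences were not used here.

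The members and the 17 other gene lists were chosen with earlier results of these data known. From each list the 2 highest and 2 lowest ratios with a mean of at least 100 could be named. Genes that overlap a member and the 5 genes nearest in pattern to Fos and to Jun could be named as well, and B2m and Gapdh were named after their values were seen. The calculation was tested on simulated libraries with known changes and random counting error only. Spread between replicates was not simulated, so the test says nothing about it. Python 3.11.15, numpy 2.4.6, pandas 2.3.3, statsmodels 0.14.6 and matplotlib 3.10.9 were used.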

Additional observations from a re-analysis of the deposited data

How the results depend on the processing

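No paired analysis was possible because each population has 1 library, and for the same reason no replicate could be left out. Settings were changed one at a time, and 0 called ratios reversed. For 2 members GFP- HSCs exceeded MPPs by 2-fold or more. This became 1 at a pseudocount of 20 or without the members that overlap a gene of the opposite strand. It became 3 with the same total, the same total without the members or the same upper quartile. With housekeeping scaling or at a 1.5-fold threshold it was 4. Over all 11951 genes, the count of 1384 became 1291 at a pseudocount of 20. It was 1499, 1510 and 1496 with those totals and that quartile, 2025 with housekeeping scaling and 2310 at 1.5-fold. Against MPPs, GFP+ HSCs had 1 such member, 4 with housekeeping scaling and 3 at 1.5-fold, where all genes gave 1636, 2795 and 2660. With no filter, Batf3 made 1 member at least 2-fold lower in each HSC fraction than in MPPs, where the filter left 0. Housekeeping scaling moved the median of all genes to 0.15 between GFP+ and GFP- HSCs, 0.31 between GFP- HSCs and MPPs and 0.47 between GFP+ HSCs and MPPs.

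Counts over all genes moved more. For GFP+ against GFP- HSCs, 49 genes were 2-fold higher and 104 lower. They became 23 and 62 at a pseudocount of 20, 164 and 194 at a minimum mean of 10, 9 and 57 at 200, 356 and 359 with no filter, 77 and 68 with housekeeping scaling, and 292 and 358 at 1.5-fold. With the abundance trend removed, 32 were higher. For GFP- HSCs against MPPs, 1384 were higher and 661 lower. They became 854 higher at a minimum of 200, 2320 and 1172 with no filter, 2025 and 435 with housekeeping scaling, and 2310 and 1601 at 1.5-fold. For GFP+ HSCs against MPPs, 1636 were higher and 1028 lower. They became 1049 higher at a minimum of 200, 2647 and 1576 with no filter, 2795 and 545 with housekeeping scaling, and 2660 and 2144 at 1.5-fold. By construction the filters and the threshold change how many genes can be counted, and for the others the cause was not tested. By median transcript length, Fosl1 and Fosl2 traded places 8 and 9 in MPPs, and 35 shares, ratios and ranks per kilobase moved by over 1.5 times. A filter on the 2 libraries compared, the removal of overlapping members, and median length for shares, ratios and ranks were added after seeing the data. Depth is unknown and limits what can be said of rare members such as Fosl1 and Batf3.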
